A study of Mus musculus with 4 samples.

Results

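The genes of polyadenylated histone variants were examined. The 9 members were chosen by their symbols: the H2A variants H2afx, H2afy, H2afz, H2afv and H2afj, the H3.3 genes H3f3a and H3f3b, and the linker histones H1f0 and H1fx. All 9 were found among the 24328 gene symbols of the table. The libraries came from satellite cells, the muscle stem cells that lie quiescent beneath the basal lamina of the myofibre. They were sorted from skeletal muscle of mice perfused with paraformaldehyde (PFA). Both groups carried the inducible Cre driver Pax7CreERT2/+, which acts in cells that express Pax7. The YFP group (2 libraries) also carried ROSA26YFP/+ and was 7 months old. The DEK group (2 libraries) carried H11DEK-EGFP/+, a transgene for the chromatin protein Dek, and was 4.5 months old. Age, reporter and locus cannot be told apart from the transgene in any difference given here, and the labels state neither the sort gate nor how many animals stand behind a library.

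Most histones are made in S phase from clustered genes whose mRNAs end in a stem-loop instead of a poly(A) tail. The variant genes described here are instead transcribed through the cell cycle and in resting cells, and their polyadenylated mRNAs are captured in poly(A) libraries. H2afx is a partial exception: its transcript also carries the stem-loop, and a poly(A) library holds only the form with a poly(A) tail. Variants replace the canonical histones in nucleosomes that have lost a subunit or at particular sites, so they are the main histone supply of a cell that does not divide. Dek has itself been described as a chaperone of H3.3.

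No member passed the test between DEK and YFP, in either direction, although the most abundant of them was higher in both DEK libraries. By limma, with an adjusted p under 0.05 over all genes tested as the threshold, 0 of 9 members were called, where 7.78% of the 12179 tested genes were (4.57% higher and 3.21% lower in DEK). At an unadjusted p under 0.05, limma placed 2 members higher in DEK (H3f3b and H1f0) and 1 lower (H3f3a), 3 of 9 against 29.1% of all tested genes. Values of the groups did not overlap for 6 of 9 members, against 60.9% of all tested genes. In both, the members' share over the 2 directions together was near that of the table. By direction, DEK was above YFP for 2 of 9 members (34% of all tested genes) and below for 4 of 9 (26.9%). The median log2 fold change of the members was -0.18, beside 0.05 over all tested genes.

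The sequences that follow show the feature that sets H2afx apart in RNA and the control regions of the 2 H3.3 genes, whose values moved in opposite directions. H2afx was the 1 member of 9 (11.1%) with a match to the histone 3′ stem-loop, searched on the transcript strand of GENCODE M21 protein-coding transcripts. The stem-loop was found in 44 of 67 protein-coding genes whose symbols start with Hist (65.7%) and in 0.329% of all protein-coding genes. In the H2afx transcript 822 bases followed the match, up to its annotated end. H2afx can thus be processed at the stem-loop or at the distal poly(A) site, and the distal form is the one a poly(A) library holds. The capitals mark the 16 bases of the match, with 5 bases on each side.
H2afx stem-loop: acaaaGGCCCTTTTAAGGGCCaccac

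The 250 bases before the annotated start of each H3.3 gene are given from RefSeq (build GRCm38.p6), both on the minus strand, with matches to CCAAT and TATAAA on either strand in capitals. The H3f3b window is chr11:116024505-116024754 and the H3f3a window is chr1:180813606-180813855.
H3f3b upstream region: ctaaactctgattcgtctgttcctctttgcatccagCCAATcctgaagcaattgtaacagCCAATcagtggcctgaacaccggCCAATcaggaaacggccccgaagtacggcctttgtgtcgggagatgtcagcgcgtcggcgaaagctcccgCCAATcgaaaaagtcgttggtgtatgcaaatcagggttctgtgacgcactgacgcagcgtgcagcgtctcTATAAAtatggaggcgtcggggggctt
H3f3a upstream region: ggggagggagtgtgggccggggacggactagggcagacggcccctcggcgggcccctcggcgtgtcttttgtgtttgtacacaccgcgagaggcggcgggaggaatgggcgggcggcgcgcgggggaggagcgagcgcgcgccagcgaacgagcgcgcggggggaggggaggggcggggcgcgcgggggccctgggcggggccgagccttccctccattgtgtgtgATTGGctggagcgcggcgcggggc
The H3f3b window held CCAAT 4 times, all on the gene's strand, and TATAAA 1 time, while the H3f3a window held CCAAT 1 time, on the other strand, and no TATAAA. Across the 32851 windows of the same length, 33.8% held CCAAT and 12.4% held TATAAA. The GC box GGGCGG was found 4 times in the H3f3a window and not in that of H3f3b, against 32.7% of all windows. Among the other members it was found in the windows of H2afy and H2afj (2 times each) and of H2afz, H2afv and H1fx (1 time each). The H1f0 window had none. The G and C content was 77.2% before H3f3a and 54% before H3f3b, around a median of 52.4%. TGACG, the core of the cyclic AMP response element, was found 2 times before H3f3b and in no other member's window, against 17.8% of all windows. Windows were at hand for 8 of the 9 members, all but H2afx. Of those, H2afv had 4, H2afj 3 and H2afz 2 matches to CCAAT, and H2afy, H1f0 and H1fx had none. A further 5 motifs had no match in any of the 8 windows. They were the full cyclic AMP response element TGACGTCA, which contains TGACG (1.55% of all windows). The others were the AP-1 motif TGANTCA (6.75%), the heat shock element (0.466%), the E2F motif TTTNGCGC (1.13%) and the CArG box (1.47%), all searched on both strands. These matches describe letters only.

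The libraries were uneven in other genes. Rn45s made up 11.8% and 15.7% of all FPKM in YFP replicates 1 and 2, and 5.15% and 5.55% in DEK replicates 1 and 2. Dek had 512 and 504 FPKM in the YFP pair, against 3196 and 1639.5 FPKM in DEK replicates 1 and 2, in that order as in all pairs of values here (FPKM is a level scaled by transcript length and library size; log2 fold change of FPKM + 1 of 2.17, SE 0.31, limma adjusted p = 0.0195). DEK replicate 1 stood apart from DEK replicate 2 in a list of 15 immediate early and stress genes, whose summed level was 15834 FPKM in the former and 3605 FPKM in the latter, against 615 and 526 FPKM in YFP. Of that list limma called 7 higher and 0 lower in DEK, with the orphan receptor Nr4a1, the AP-1 gene Fosb and the chaperones Hspa1a and Hspa1b at the smallest p. Over all tested genes limma called 4.57% higher and 3.21% lower, the shares to set beside the marker counts that follow. The summed level of 10 endothelial markers ran from 57.6 to 57.8 FPKM in YFP and from 135 to 166 FPKM in DEK. Nearly all of the YFP sum was Tek, the 1 marker that was not called (55.9 and 56.7 FPKM in YFP, 78.8 and 66.5 FPKM in DEK). The other 9 rose, with sums of 1.66 and 1.15 FPKM in YFP and 87.5 and 68.8 FPKM in DEK. All 9 lay below 1 FPKM in both YFP libraries. They passed the filter of 1 FPKM in 2 or more libraries only through DEK, so a fall could not have been seen. The endothelial adhesion gene Pecam1 rose from 0.745 and 0.579 FPKM to 15.3 and 12.1 FPKM, while Kdr, Flt1 and Ptprb were listed at 0 in both YFP libraries. For 9 macrophage markers in the table the sums were 3.76 and 20.03 FPKM in YFP and 93.5 and 116 FPKM in DEK. Of the 5 tested 2 rose, Csf1r and C1qa, the latter listed at 0 in both YFP libraries. Both lay below 1 FPKM in YFP and passed the filter only through DEK. The same held for the markers Hba-a1 (erythroid) and Myh11 (smooth muscle), counted below among those that rose. The 8 satellite cell markers, Pax7 among them, were all detected, with sums of 1446 to 1510 FPKM in YFP and 1512 to 1959 FPKM in DEK, and 1 of them, Cd34, rose. Of 4 erythroid markers tested, all of them globin genes, 1 rose. Their sums were 7.45 and 0 FPKM in YFP and 24.5 and 346 FPKM in DEK. Of 7 fibro-adipogenic markers 3 rose and 2 fell, of 6 pericyte and smooth muscle markers 2 rose, and of 2 lymphocyte and 3 myofibre markers tested none was called by limma (at an unadjusted p under 0.05, 2 lymphocyte and 2 myofibre markers were higher and 1 myofibre marker lower). The part of these differences in the members' values was not tested. In such bulk libraries fewer cells of a type and less RNA per cell cannot be told apart.

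H3.3, the replacement form of histone H3 that is laid down outside replication, is made from 2 genes that encode the same protein. H3f3b was the most abundant of the 9 genes in all 4 libraries, at the 99.9 percentile of mean level among tested genes. YFP replicates 1 and 2 had 1373 and 1177 FPKM of it, against 5119 FPKM in DEK replicate 1 and 2228 FPKM in DEK replicate 2. Both DEK values lay above both YFP values, and DEK replicate 1 was 2.30 times DEK replicate 2. The group means were 1275 ± 139 and 3674 ± 2044 FPKM (SD, n = 2 libraries each). Its log2 fold change of FPKM + 1 was 1.41 (SE 0.39, 95% interval 0.46 to 2.35) and did not pass limma (adjusted p = 0.0794). The size of the difference rested on DEK replicate 1: the log2 fold change was 0.81 without it and 2.01 without DEK replicate 2. Fits without a DEK library take a gene's own spread from the YFP pair alone and assume that the lone DEK library varies alike. On that footing limma gave an adjusted p of 0.168 without DEK replicate 1 and 0.0466 without DEK replicate 2, or 0.0456 and 0.000996 when the filter on low values used only the 3 libraries kept.

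H3f3a went the other way. The YFP pair had 125 and 111 FPKM, against 48.9 FPKM in DEK replicate 1 and 85.2 FPKM in DEK replicate 2, so that both DEK values lay below both YFP values. DEK replicate 1, the library with the most H3f3b, had the least H3f3a. The log2 fold change was -0.86 (SE 0.27, 95% interval -1.51 to -0.21) and did not pass limma (adjusted p = 0.102). It was -0.46 without DEK replicate 1 and -1.25 without DEK replicate 2. Without YFP replicates 1 and 2 it was -0.77 and -0.94.

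Because the values are scaled by length, the 2 genes can be set beside each other. H3f3b exceeded H3f3a 11.0 and 10.6 times in YFP replicates 1 and 2, and 105 and 26.2 times in DEK replicates 1 and 2. H3f3a made up 8.34% and 8.62% of their summed FPKM in YFP, and 0.946% and 3.68% in DEK. The share of H3f3b was 91.5 ± 0.194% in YFP and 97.7 ± 1.93% in DEK (SD, n = 2 each), 6.17 percentage points higher in DEK and higher in both DEK libraries than in either YFP library. Leaving out each library in turn gave 4.80 to 7.53 points. A ratio within a library does not depend on library scaling. Its log2 value was 3.43 ± 0.036 in YFP and 5.71 ± 1.42 in DEK (SD, n = 2 each), a difference of 2.28, and the exact two-sided permutation test gave p = 0.333, the smallest that 2 against 2 libraries can give. Summed over both genes, H3.3 RNA amounted to 1498 and 1288 FPKM in the YFP pair, against 5168 and 2313 FPKM in the DEK pair.

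Reads of these genes can be shared with copies elsewhere. Of the windows of 75 bases (1 read) in the longest H3f3a transcript, 9.83% occurred unchanged in annotated transcripts of 27 other genes, among them the pseudogenes H3f3a-ps1 and H3f3a-ps2. For H3f3b the share was 4.26%, in 3 other genes. The longest run of bases that the H3f3a and H3f3b transcripts had in common was 23, shorter than a read, so exact matches over a whole read do not mix the 2 genes with each other. The H3f3aos antisense transcript and Gm17275 overlap H3f3a in that annotation, and the counting is not stated to use strand. How the authors assigned shared reads is not given in the sources used here, so H3f3a is the less certain of the pair.

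**Figure D1:**
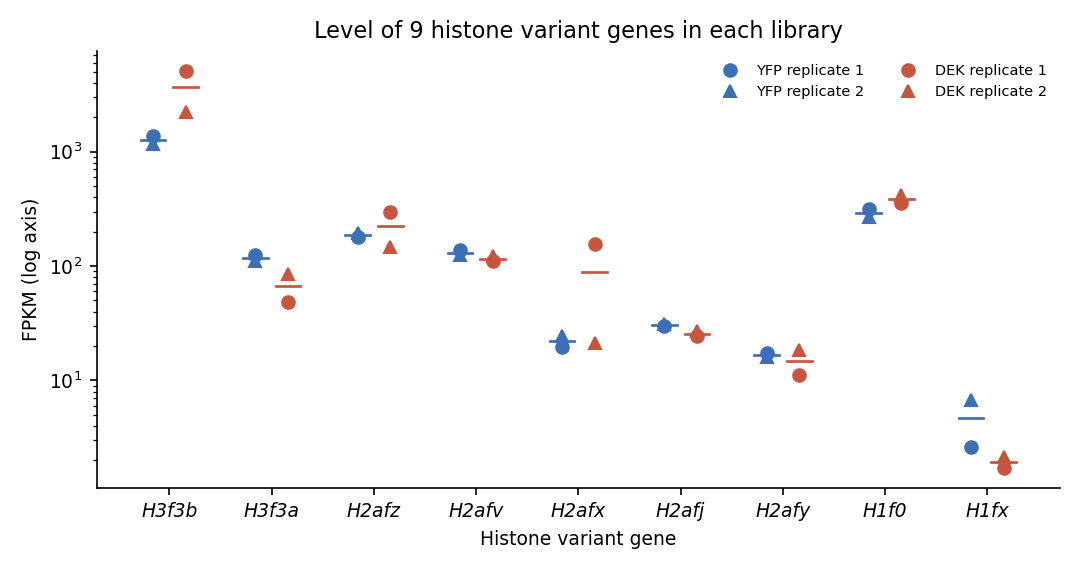
Level of each of the 9 genes in FPKM (log axis) in YFP (blue) and DEK (red) libraries; circles are replicate 1, triangles replicate 2 and short lines the group means. H3f3b stands at 1177 to 1373 FPKM in YFP and 2228 to 5119 FPKM in DEK, and H2afx is high in DEK replicate 1 alone.

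H2A.Z, an H2A variant found at promoters and enhancers, is likewise made from 2 genes, whose proteins are nearly the same. For H2afz the YFP libraries gave 181 and 194 FPKM, DEK replicate 1 gave 298 FPKM and DEK replicate 2 gave 147 FPKM. The DEK libraries lay on either side of the YFP pair, and H2afz had no consistent direction. Its log2 fold change was 0.16 (SE 0.32, 95% interval -0.63 to 0.94, limma adjusted p = 0.780), and it turned to -0.35 without DEK replicate 1. H2afv was steadier: 137 and 125 FPKM in the YFP pair, 110 and 122 FPKM in the DEK pair. Both DEK values lay below both YFP values, by little (log2 fold change -0.18, SE 0.14, 95% interval -0.51 to 0.16, limma adjusted p = 0.436). H2afz made up 56.9% and 60.8% of the summed FPKM of the pair in YFP and 72.97% and 54.6% in DEK, so that DEK replicate 1 was the highest of the 4 libraries and DEK replicate 2 the lowest. Together the genes gave 318 and 319 FPKM in the YFP libraries, against 408 and 268 FPKM in the DEK libraries. In the H2afz transcript 31.6% of the windows of 75 bases were shared with 4 other annotated genes, the largest share among the 9 members, and in that of H2afv none was. H2afz values are therefore uncertain to that extent.

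H2A.X is the variant whose tail is phosphorylated beside DNA breaks. H2afx had 19.8 and 24.6 FPKM in the YFP pair, 155 FPKM in DEK replicate 1 and 21.4 FPKM in DEK replicate 2. DEK replicate 1 alone was high, at 7.00 times the YFP mean, while DEK replicate 2 lay between the YFP values. The log2 difference between the DEK libraries was 2.80, larger than that of 99.9% of tested genes, and that between the YFP libraries was 0.30. The log2 fold change of 1.36 (SE 0.82, 95% interval -0.66 to 3.38) did not pass limma (adjusted p = 0.321). It was -0.040 without DEK replicate 1 and 2.76 without DEK replicate 2. The latter passes limma (adjusted p = 0.0411) only once the DEK library that lay within the YFP range is removed, with a spread that comes from the YFP pair alone, so it is given as a value and not as a call. H2afx made up 5.13% and 6.28% of the summed FPKM of the 5 H2A variant genes in YFP, 25.9% in DEK replicate 1 and 6.39% in DEK replicate 2. The transcript that carries the stem-loop shown above shared 3.28% of its read-length windows with other genes, most of them replication-dependent H2A genes.

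**Figure D2:**
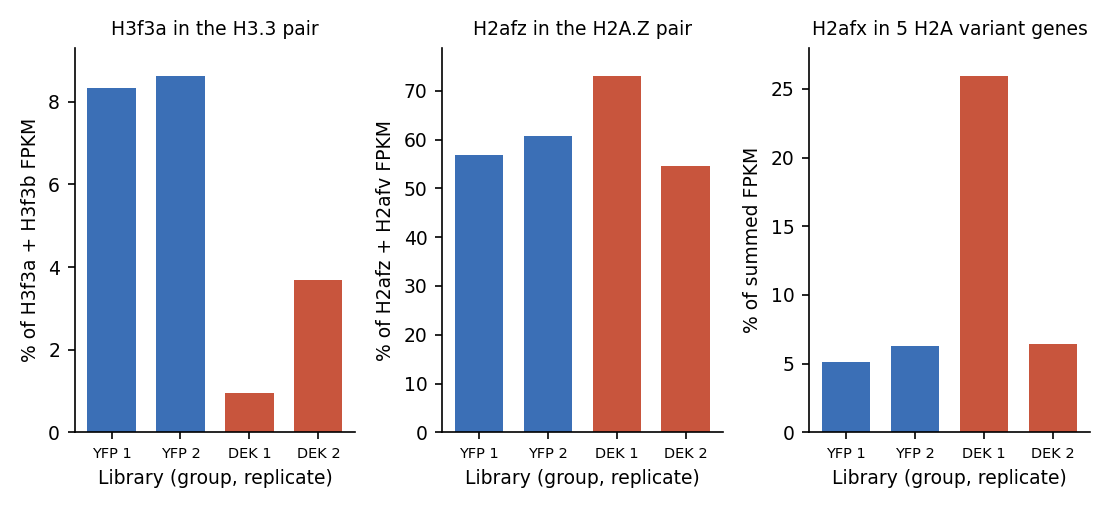
Shares of summed FPKM in each library (bars; YFP blue, DEK red): H3f3a in the H3.3 pair, H2afz in the H2A.Z pair and H2afx among 5 H2A variant genes. H3f3a makes up 8.34% and 8.62% in YFP against 0.946% and 3.68% in DEK, while the other 2 shares set DEK replicate 1 apart from the rest.

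The remaining H2A variants differed little. H2afj encodes H2A.J, a variant that accumulates in senescent fibroblasts. The YFP pair had 30.04 and 31.3 FPKM, the DEK pair 24.4 and 26.8 FPKM, with no overlap between the groups. The log2 fold change was -0.25 (SE 0.14, 95% interval -0.60 to 0.10, limma adjusted p = 0.296), and it was between -0.32 and -0.19 with any 1 library left out. H2afy encodes macroH2A1, which carries a large non-histone domain and is enriched on the inactive X chromosome. Its levels were 17.3 and 15.9 FPKM in the YFP pair, 11.2 FPKM in DEK replicate 1 and 18.3 FPKM in DEK replicate 2. The DEK values again enclosed the YFP pair (log2 fold change -0.20, SE 0.25, 95% interval -0.80 to 0.40, limma adjusted p = 0.631). Without DEK replicate 1 the sign turned, to 0.13.

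Linker histones bind the DNA between nucleosomes. H1f0 encodes H1.0, which builds up in cells that have stopped dividing, and was the second most abundant member, at 314 and 268 FPKM in YFP and 356 and 416 FPKM in DEK. Both DEK values were above both YFP values. The DEK libraries were as close to each other as the YFP libraries (1.17 times in each group), and for this gene DEK replicate 2 was the higher. The log2 fold change was 0.41 (SE 0.16, 95% interval 0.02 to 0.80), which did not pass limma (adjusted p = 0.159). It stayed between 0.29 and 0.52 with any 1 library left out. With Rn45s removed and the other values rescaled it was 0.27 (limma adjusted p = 0.272), the lowest of all alternatives. The unadjusted p of H1f0 was then no longer under 0.05. The same held with quantile normalization, with the replicate number as a block, with no low filter and in limma without the variance trend. H1fx, for the linker histone H1.X, was the lowest of the 9, at the 20.5 percentile of tested genes. It had 2.62 and 6.73 FPKM in YFP and 1.72 and 2.16 FPKM in DEK. The YFP libraries differed 2.57 times, more than the lower of them differed from DEK replicate 2. The log2 fold change was -0.85 (SE 0.37, 95% interval -1.77 to 0.06, limma adjusted p = 0.195). It was -0.31 without YFP replicate 2 and -1.40 without YFP replicate 1 (limma adjusted p = 0.520 and 0.0879), and it ran from -1.09 with 0.1 FPKM added before the log to -0.45 with 5 FPKM added.

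**Figure D3:**
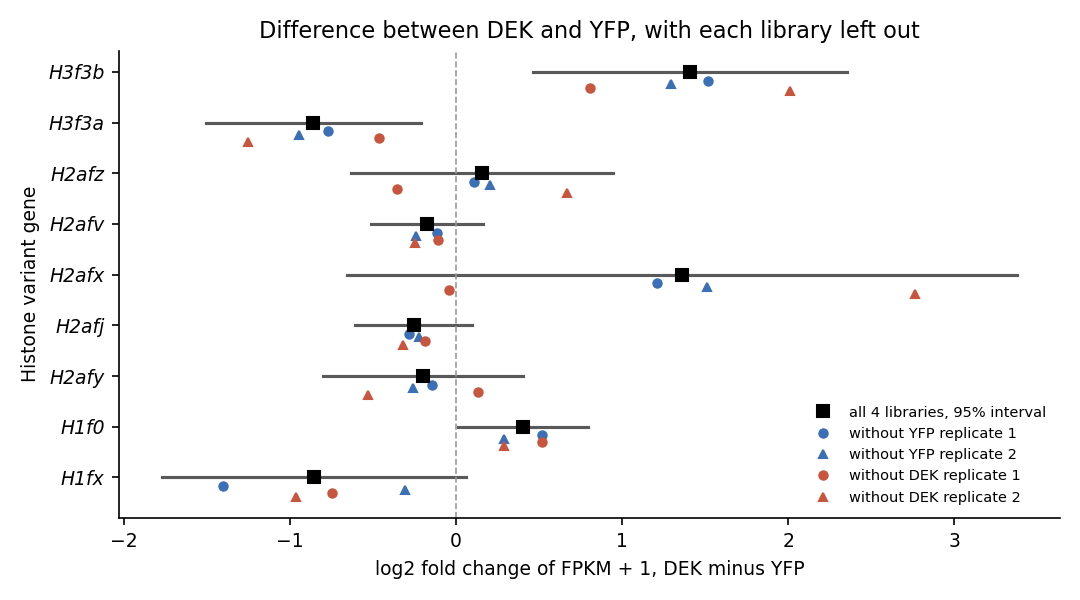
Log2 fold change of FPKM + 1, DEK minus YFP, for each gene (squares, with the 95% interval from limma) and with each library left out (small symbols, named in the key). H3f3b lies above 0 and H3f3a below 0 with any 1 library left out, while H2afx, H2afz and H2afy change sign without DEK replicate 1.

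In sum over the 9 genes, variant histone RNA came to 2200.0 and 1954 FPKM in the YFP pair, to 6124 FPKM in DEK replicate 1 and to 3066 FPKM in DEK replicate 2. H3f3b alone gave 62.4% and 60.2% of it in YFP and 83.6% and 72.7% in DEK. Without H3f3b the sums were 827 and 777 FPKM in YFP and 1005 and 838 FPKM in DEK. Within DEK, H2afx, H3f3b and H2afz had replicate differences of 2.80, 1.20 and 1.02 on the log2 scale, larger than those of 99.9%, 98.1% and 97.2% of tested genes, each with DEK replicate 1 the higher. H3f3a and H2afy had differences of 0.79 and 0.66 with DEK replicate 1 the lower (94.9% and 92.5%). H2afv, H2afj, H1f0 and H1fx had 0.13 to 0.23, near the median of 0.20 over all tested genes.

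A further 10 variant histone genes were listed, of which 2 reached the filter on low values. Cenpa, the H3 variant of centromeres that is loaded after mitosis, fell from 11.7 and 9.79 FPKM in YFP to 2.39 and 4.47 FPKM in DEK (log2 fold change -1.44, SE 0.27, limma adjusted p = 0.0372). It is the only variant histone gene of the 19 listed that was called, and H2afy2, for macroH2A2, was not (0.576 to 1.55 FPKM in all libraries, log2 fold change 0.18, limma adjusted p = 0.718). Cenpa is a gene of dividing cells. Over all tested genes limma called 3.21% lower and 4.57% higher in DEK (at an unadjusted p under 0.05, 12.2% and 16.9%). Of 21 tested proliferation genes 8 fell and 0 rose by limma (at an unadjusted p under 0.05 they were 12 and 1), with a median log2 fold change of -0.74. Among them the tubulin regulator Stmn1 had -1.37, the cyclin Ccna2 -1.59, the proliferation marker Mki67 -2.12 and the mitotic kinase Cdk1 -1.81. H2afy3, H1foo, Hils1 and Hist1h1t stood at 1.64 FPKM or less in every library, H2afb1 and H2afb3 at 0.0259 FPKM or less, and H2afb2 and H1fnt were listed at 0 throughout.

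Variants reach chromatin through dedicated chaperones, so their RNA was read beside that of the members. H3.3 is deposited in genes by the Hira complex (Hira, Ubn1, Ubn2, Cabin1, with Asf1a) and at repeats by Daxx and Atrx. Over all tested genes limma called 4.57% higher and 3.21% lower in DEK. At an unadjusted p under 0.05 these shares were 16.9% and 12.2%, and the counts below are to be read beside them. Of 8 H3.3 chaperone genes tested 1 rose, Dek itself, and 1 fell. The latter was Ubn1, a subunit of the Hira complex, at 29.4 and 31.8 FPKM in YFP and 17.96 and 18.8 FPKM in DEK (log2 fold change -0.71, SE 0.15, limma adjusted p = 0.0430). Hira, named after its values were seen, had 7.38 and 6.20 FPKM in the YFP pair, 3.57 and 3.51 FPKM in the DEK pair, and did not pass (log2 fold change -0.77, SE 0.19, limma adjusted p = 0.0647). The list's median was -0.16. None of 19 genes of the Srcap and Ep400 complexes and Anp32e and Ino80, which load or remove H2A.Z, was called by limma, with a median of 0.01 and, at an unadjusted p under 0.05, 3 lower and 0 higher. Of 13 general histone chaperones 0 rose and 1 fell, with a median of 0.10. That 1 was Chaf1b, a subunit of the assembly factor that works at replication forks (log2 fold change -1.16, SE 0.22, limma adjusted p = 0.0376; 4.55 FPKM in both YFP libraries, 1.16 and 1.84 FPKM in DEK). Of 17 tested genes that signal from or act on phosphorylated H2A.X, limma called 0, with a median of 0.09 and, at an unadjusted p under 0.05, 2 higher and 1 lower.

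**Figure D4:**
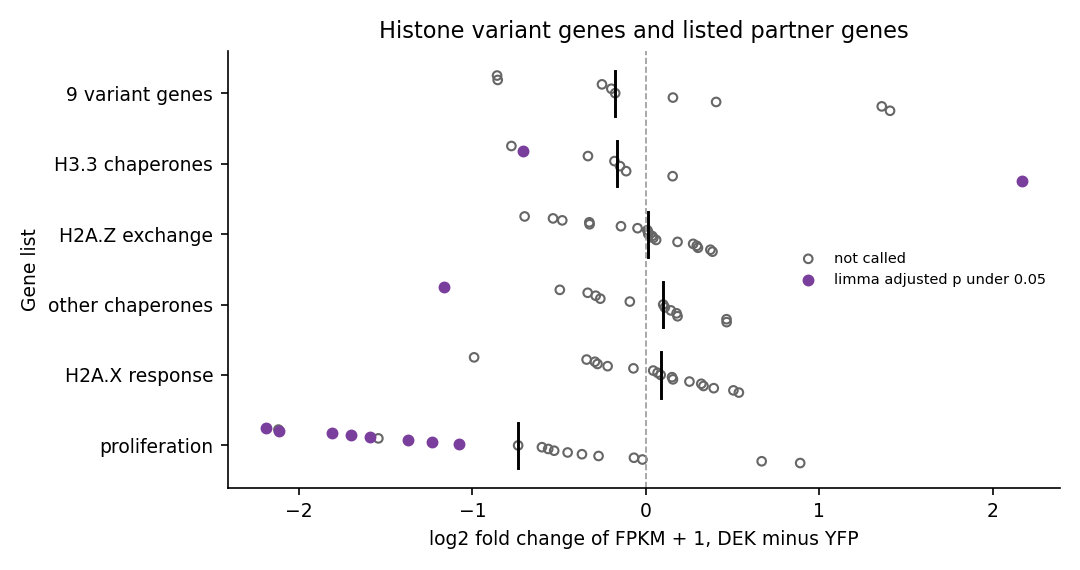
Log2 fold change of FPKM + 1, DEK minus YFP, of each tested gene (circles) in the 9 variant genes and in 5 listed groups; filled circles passed limma and vertical lines are medians. The proliferation list has a median of -0.74 with 8 called lower, and none of the 9 variant genes is called.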

How the data were processed

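Polyadenylated RNA of 4 libraries was sequenced as paired reads. The authors worked on build mm9 with STAR 2.5.3a, StringTie 1.3.3 and R 3.4.1, per the submitters' processing notes; settings and annotation are not given in the sources used here. Each symbol has 1 deposited value in a library, taken as FPKM (inferred from the tool and from values that are not whole; TPM is possible). All value columns were used. Depth cannot be read from these values, so no counting intervals are given.

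Log2(FPKM + 1) was fitted with limma 3.58.1 in R 4.3.3. The test took in 12179 of 24328 symbols, those that reached 1 FPKM in 2 or more libraries, all 9 members among them. The model had the group as its only term and a variance trend; tests were two-sided, adjusted by Benjamini-Hochberg over all tested genes, with calls below 0.05. The fit was tested on simulated data, and no value from that check is used here. It takes the same spread for a gene in both groups. Replicate differences on the log2 scale were 2.80 in DEK and 0.30 in YFP for H2afx. For H1fx they were 0.22 in DEK and 1.09 in YFP. What such unequal spreads do to the calls was not tested. Age, reporter and locus move with the group and have no term of their own. Nothing says that replicates are separate animals, so p-values measure only the spread between these libraries. Deviations from the group means correlated at 0.0635 between same-numbered replicates, and the number was not used as a block.

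Promoter windows are from RefSeq (GRCm38.p6) and transcripts from GENCODE M21, both matched by symbol; they are not of the authors' build and serve for sequence only. The members and lists were chosen with earlier results of these data known. Named were the 9 members, Dek and the other variant histone genes listed. Of each further list, at most the 4 called genes with the smallest p were named. Kdr, Flt1, Lyz2, Pax7 and the genes given in the observations were named after their values were seen. Alternatives were left-out libraries, the replicate block, other added values, filters, scalings, limma options and thresholds.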

Additional observations from a re-analysis of the deposited data

How the results depend on the processing

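Members called by limma numbered 0 higher and 0 lower. The higher count was 1 with quantile normalization (H3f3b, log2 fold change 1.11, adjusted p = 0.0465), 1 at an adjusted p under 0.1 (H3f3b), and 0 to 2 with 1 library left out. When the low filter used only the libraries kept, a setting chosen after seeing the data, it was 0 to 3 higher and 0 to 1 lower: H3f3b without DEK replicate 1 (adjusted p = 0.0456), and without DEK replicate 2 H3f3b, H2afx and H2afz higher (0.000996, 0.00102 and 0.0430) and H3f3a lower (0.00969). Without DEK replicate 1 the log2 fold change turned to -0.040 for H2afx, 0.13 for H2afy and -0.35 for H2afz under either filter; the other ends of their ranges, without DEK replicate 2, were 2.76, -0.53 and 0.67. The H2afz share of its pair turned from 4.97 points higher in DEK to -4.21; with 1 library left out it ran from -4.21 to 14.2 points and that of H3f3b from 4.80 to 7.53. H3f3a, H3f3b, H2afv, H2afj, H1f0 and H1fx kept their sign under each alternative that gave a value, over which the adjusted p ran from 0.000996 to 0.323 for H3f3b and from 0.00969 to 0.280 for H3f3a; H1fx missed the filter at 5 FPKM. Over all genes 948 were called, 618 with the replicate number as a block (replicate block; H3f3b adjusted p = 0.0628, 0 members called), 293 with no low filter, 2096 at an adjusted p under 0.1 and 0 to 184 with 1 library left out. With the filter on the libraries kept they were 168, 83, 302 and 780 without YFP replicates 1 and 2 and DEK replicates 1 and 2. The higher part of the calls was 58.8% as reported, 73.7% with no low filter, 81.7%, 76.8% and 75.5% without YFP replicates 1 and 2 and DEK replicate 2, 47.6% to 80.7% with 1 library left out and the filter on those kept, 45.4% under quantile normalization and 43.5% in the absence of Rn45s, where the median over all genes shifted from 0.05 to -0.07. The causes were not tested. The depth of the libraries is unknown.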

Other observations

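Genes whose symbols start with Hist, most of them replication-dependent histone genes, were grouped by symbol after the values were seen. Of the 68 such symbols, 37 were tested, and limma called 6 higher and 2 lower in DEK. Over all tested genes 4.57% were called higher and 3.21% lower. The median log2 fold change of the tested symbols was 0.32. Of those called higher, all but Hist1h2be lay below 1 FPKM in both YFP libraries and passed the low filter only through DEK. Of those called lower, Hist1h2ao lay below 1 FPKM in both DEK libraries and passed only through YFP. The counts and the median carry that limit. Among those called higher, Hist1h3f stood at 0.246 and 0.522 FPKM in YFP and 10.1 and 6.02 FPKM in DEK, and Hist1h2be at 3.16 and 2.06 FPKM in YFP and 12.1 and 9.60 FPKM in DEK. Those called lower were Hist1h2ao, at 24.2 and 16.8 FPKM in YFP and 0.307 and 0.908 FPKM in DEK (log2 fold change -3.74, limma adjusted p = 0.00386), and Hist1h2bc, at 28.2 and 26.9 FPKM in YFP and 13.5 FPKM in both DEK libraries. Summed over the 68 genes the level was 282 and 225 FPKM in YFP and 425 and 254 FPKM in DEK. Most mRNAs of replication-dependent genes end in a stem-loop without a poly(A) tail, and these libraries hold polyadenylated RNA. The sum is therefore not a measure of all RNA from the Hist genes. Copies of these genes are close in sequence, so single members are uncertain.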
